A study of Homo sapiens with 6 samples.

Results

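The genes examined here encode the transcription factors of the AP-1 family together with EGR1 and MYC, taken by name as FOS, FOSB, FOSL1, FOSL2, JUN, JUNB, JUND, ATF3, EGR1 and MYC. They are 10 of the 60612 genes with a value. The values come from RNA sequencing of MDA-MB-231, an established human triple-negative breast cancer cell line labelled as epithelial. In the Sh-NC group (n = 3) the cells carried a control hairpin and were labelled wild type, and in the Sh-YAP1 group (n = 3) they carried a hairpin against YAP1 and were labelled YAP1 knockdown. Both groups were collected on day 3 with no further treatment. The study describes the cells of this experiment as stably expressing the hairpins, while its general methods describe a lipid transfection of hairpin constructs. The number of hairpins, and whether each line was a clone or a pool, are not given in the sources used here. Nothing in the labels says that the replicates came from separate cultures, so the p-values below measure the spread between these libraries, which may be technical.

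AP-1 is a dimer of a JUN protein with a FOS, ATF or MAF protein, or with another JUN protein, and binds a short palindrome in enhancers and promoters. FOS, FOSB, EGR1, ATF3 and, in many cells, JUN, JUNB and MYC are immediate early genes, which are transcribed within minutes of a growth factor, serum or stress signal without new protein synthesis. FOSL1 is known for high levels in invasive, mesenchymal breast cancer lines. YAP1 is a transcriptional co-activator of the Hippo pathway that binds DNA through TEAD proteins, and AP-1 and TEAD are known to share many enhancers. The comparison asks whether the RNA of these factors changed when YAP1 was depleted.

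None of the factors passed the test across all genes. EGR1 stood at 2.73 ± 0.187 FPKM in the Sh-NC libraries and 3.93 ± 0.110 FPKM in Sh-YAP1 (SD, n = 3), and FOS at 1.24 ± 0.35 and 1.74 ± 0.015 FPKM, with no overlap between the groups in either gene. FOSL1, by far the most abundant member, and JUN, JUNB and JUND overlapped between the groups. FOSL2 was lower in every Sh-YAP1 library than in any Sh-NC library, and the size of its fall lay mostly in 1 library. The groups did not overlap in 3 of the 9 members tested, against 29.4% of all genes tested.

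The libraries match their labels in the targeted gene: YAP1 was at 28.12, 26.24 and 22.87 FPKM in the Sh-NC libraries and at 3.35, 2.67 and 2.58 FPKM in Sh-YAP1, a log2 fold change of -2.79 (SE 0.12, limma with Benjamini-Hochberg adjustment, adjusted p = 0.0018). FPKM is the number of fragments relative to transcript length and to all mapped fragments of the library. It allows levels of different genes to be compared, but the values keep no depth, so sampling error within a library is unknown. The FPKM of KRT8, KRT18 and KRT19, keratins of epithelial cells, lay between 99.9 and 193, and VIM, a mesenchymal filament, between 1645 and 2303. KRT19 fell with a log2 fold change of -0.50 (limma adjusted p = 0.0273), and the summed FPKM of KRT8, KRT18, KRT19, EPCAM and CDH1 was 422.16 to 484.68 in the Sh-NC libraries and 348.28 to 380.43 in the Sh-YAP1 libraries. The part of this difference in the values of the transcription factors was not tested. CDH1, the epithelial cadherin, was at most at 0.49 FPKM and the receptors ESR1 and PGR at most at 0.07, whereas the receptor ERBB2 lay between 14.34 and 18.08 FPKM. Of the markers of other cells, CD3E was listed at 0 in all libraries and PTPRC, CDH5 and VWF did not exceed 0.04 FPKM, whereas CD68, a lysosomal protein, lay between 56.18 and 80.2 FPKM. The endothelial marker PECAM1 was at 0.76 to 1.7 FPKM, and the fibroblast and pericyte markers COL1A1, ACTA2 and PDGFRB were at 3.64 to 8.32, 1.69 to 2.39 and 1.15 to 1.71 FPKM. The groups overlapped in each of these except ACTA2, whose Sh-YAP1 libraries were the higher. None of 5 heat shock and stress genes passed the test, and their summed level was 374.88 to 399.68 FPKM in the Sh-NC libraries and 357.14 to 378.4 FPKM in Sh-YAP1. In that list HSPA1A was at 1.24 FPKM in Sh-YAP1 replicate 3, the library with the lowest MYC and the highest ATF3, and at 21.94 to 28.52 FPKM in the others.

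Promoter sequences are shown for EGR1 and FOS, the only members whose groups were apart with higher values in Sh-YAP1, and for JUND, a member whose groups overlapped. The windows are the bases before the RefSeq start on GRCh38.p14, written 5′ to 3′ on the strand of the gene. Capitals mark the CRE core site TGACG, bound by ATF and CREB proteins, and the CArG box, bound by the serum response factor SRF, on either strand. EGR1 lies on the plus strand at chr5:138465229-138465478, FOS on the plus strand at chr14:75278578-75278773 and JUND on the minus strand at chr19:18281623-18281872. The FOS window ends 54 bases short of the RefSeq start, where the gene model of GENCODE release 29 begins.
EGR1 promoter: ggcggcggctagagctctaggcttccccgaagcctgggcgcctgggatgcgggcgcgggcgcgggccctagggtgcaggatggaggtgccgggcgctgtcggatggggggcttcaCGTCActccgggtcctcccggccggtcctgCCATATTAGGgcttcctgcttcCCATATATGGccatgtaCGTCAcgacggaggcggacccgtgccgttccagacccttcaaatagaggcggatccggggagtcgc
FOS promoter: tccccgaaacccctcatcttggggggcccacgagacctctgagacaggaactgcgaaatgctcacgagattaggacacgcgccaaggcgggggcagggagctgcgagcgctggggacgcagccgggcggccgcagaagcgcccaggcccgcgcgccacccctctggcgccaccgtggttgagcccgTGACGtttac
JUND promoter: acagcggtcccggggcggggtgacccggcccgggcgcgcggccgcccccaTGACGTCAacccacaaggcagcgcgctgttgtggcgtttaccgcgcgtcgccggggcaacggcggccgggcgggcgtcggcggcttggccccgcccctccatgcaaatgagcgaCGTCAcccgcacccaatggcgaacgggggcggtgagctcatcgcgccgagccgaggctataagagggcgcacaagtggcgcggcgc

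In the EGR1 window, CArG boxes stood 105 to 96 and 83 to 74 bases before the start, and CRE core sites 135 to 131 and 66 to 62 bases before it. FOS held a CRE core site 64 to 60 bases before its start and, in the stretch not printed, the TATA box TATAAA 33 to 28 bases before it. JUND held CRE core sites on opposite strands 200 to 196 and 197 to 193 bases before its start, which overlap each other, and another 86 to 82 bases before it. A RefSeq window was found for 8 of the 10 members, all but FOSL1 and MYC. The CRE core site was in the windows of 7 members (EGR1, FOS, FOSB, FOSL2, JUN, JUNB and JUND), against 21.2% of all 35116 windows of the same length. The TATA box letters were in the windows of 4 members (ATF3, FOS, FOSB and JUNB), against 10.7%. The match of ATF3 lay 230 to 225 bases before the start, those of FOS, FOSB and JUNB between 33 and 25 bases before it. The CArG box was in the window of EGR1 alone, against 1.16%. The AP-1 motif TGANTCA, the TEAD motif GGAATG and the E-box CACGTG were in none of the members' windows and in 6.57%, 11.9% and 6.34% of all windows. These are letter matches in a window of 250 bases and not measured binding.

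The levels of the members spanned a wide range. In Sh-NC the mean FPKM of FOSL1 was 98.3 times that of FOS. FOSL1 had the highest FPKM of the members in 6 of 6 libraries. JUND and JUN came next, and their values overlapped, with JUND above JUN in 4 libraries and JUN above JUND in 2. FOSL2 was above JUNB in 5 libraries, the exception being Sh-YAP1 replicate 2. JUNB was above MYC, MYC above EGR1 and EGR1 above FOS in 6 of 6 libraries. ATF3 and FOSB had the lowest means, and their values overlapped in Sh-YAP1. Among the 14770 genes tested, whose FPKM averaged 0.5 or more, the mean level of FOSL1 stood at the percentile 96.7 and that of FOS at 17.7.

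**Figure D1:**
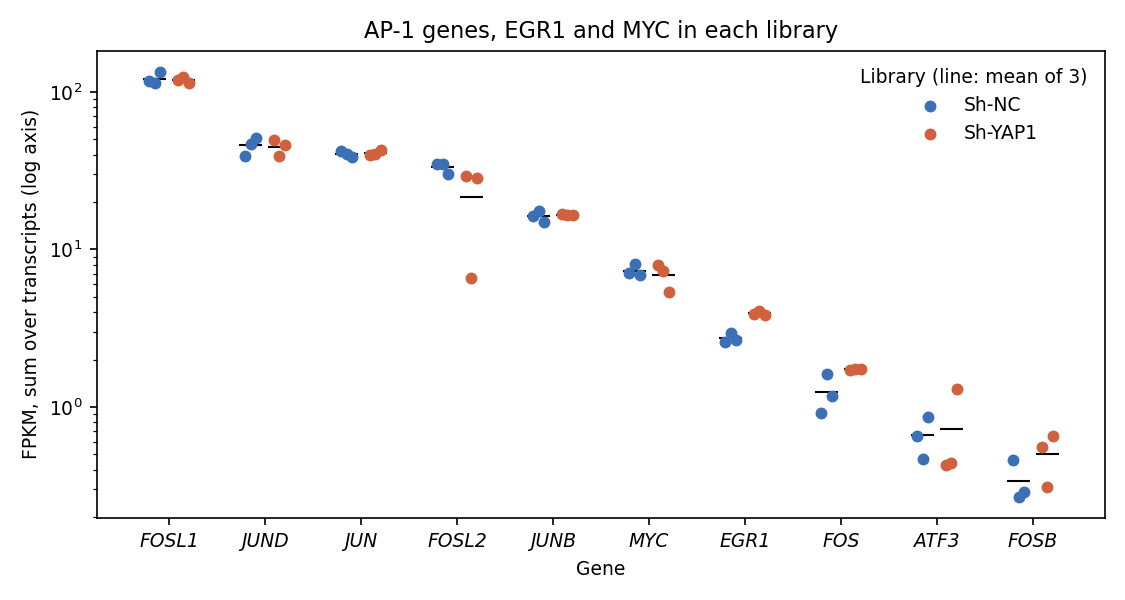
FPKM of the 10 factors in each library (log axis), with each library as a point and each group mean as a short line. FOSL1 lies highest in all libraries, EGR1 and FOS lie higher in Sh-YAP1 without overlap, and 1 Sh-YAP1 library of FOSL2 falls to 6.58 FPKM.

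Of the 10 members, 9 passed the filter on low values and FOSB did not. None of the 9 passed the threshold of 0.05 in limma after Benjamini-Hochberg adjustment over all genes tested, whereas 499 of the 14770 genes did (3.38%). At an unadjusted p under 0.05 stood 1 of the 9, EGR1, against 21.9% of all genes. The groups did not overlap in 3 of the 9 members, EGR1 and FOS with higher and FOSL2 with lower values in Sh-YAP1, against 29.4% of all genes. The fitted log2 fold change was above 0 in 5 and below 0 in 4 of them, with a median of 0.018 beside -0.0014 over all genes. In 6 of the 9 the size of the change was smaller than the median size over all genes, 0.161. All log2 fold changes are of Sh-YAP1 against Sh-NC on the scale log2(FPKM + 1), which understates changes of genes near or under 1 FPKM. With 3 libraries against 3 the smallest p of the exact two-sided permutation test is 0.1, so it cannot reach 0.05 for a single gene.

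**Figure D2:**
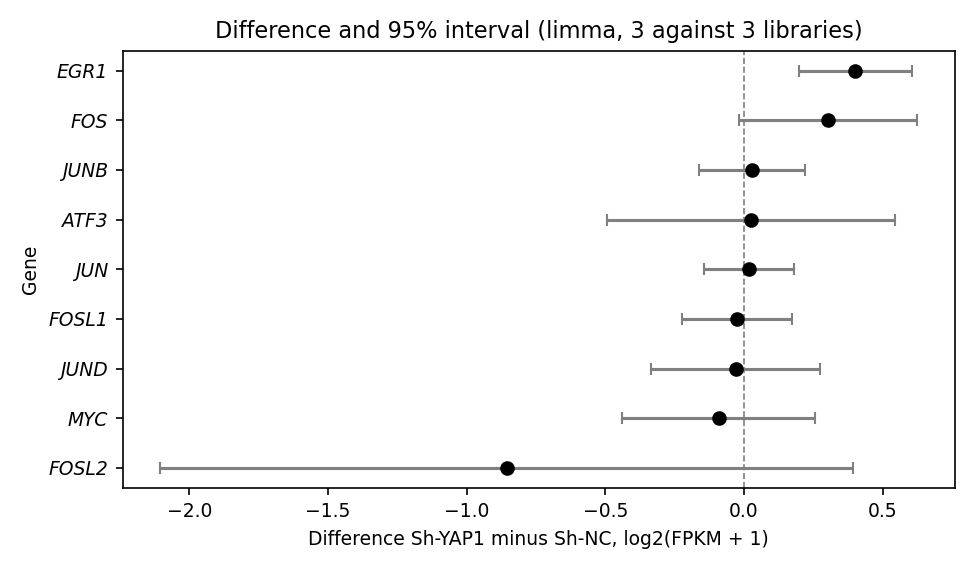
Log2 fold change of each tested member, Sh-YAP1 against Sh-NC, on the scale log2(FPKM + 1), with the 95% interval from limma as a line. Only the interval of EGR1, 0.20 to 0.61, leaves out 0, and that of FOSL2 is the widest.

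Among the FOS proteins, which need a JUN partner to bind DNA, FOSL1 (also called FRA1) carried most of the RNA. FOSL1 (ENSG00000175592, chr11:65892049-65900573, minus strand) was at 117.01, 113.75 and 133.91 FPKM in the Sh-NC libraries and at 118.81, 124.41 and 114.3 FPKM in Sh-YAP1. The groups overlapped throughout, and Sh-NC replicate 3 was the highest library. The log2 fold change was -0.03 (SE 0.08, limma adjusted p = 0.890), and its 95% interval corresponds to a ratio of FPKM + 1 between 0.856 and 1.13.

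FOSL2 (also called FRA2; ENSG00000075426, chr2:28392448-28417312, plus strand) was at 35.05, 34.66 and 30.28 FPKM in the Sh-NC libraries and at 29.46, 6.58 and 28.46 FPKM in Sh-YAP1. Every Sh-YAP1 library was lower than every Sh-NC library, and replicate 2 stood far below the other two. The log2 fold change was -0.85 (SE 0.52, 95% interval -2.10 to 0.40, limma adjusted p = 0.389). Without Sh-YAP1 replicate 2 the mean of that group was 28.96 ± 0.707 FPKM (SD, n = 2) and the log2 fold change -0.19 (SE 0.10, 95% interval -0.44 to 0.05, limma adjusted p = 0.349). The FPKM of FOSL2 in that library was 0.231 times its next lowest value. Of the 6228 genes averaging 10 FPKM or more, 15, FOSL2 included, had a drop as deep in 1 of the 6 libraries. For 4 of them, again counting FOSL2, the library was Sh-YAP1 replicate 2. The part of the assignment of fragments to transcripts in the low FOSL2 value was not tested.

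FOS (ENSG00000170345, chr14:75278774-75282230, plus strand), the founding member and a target of SRF and its ELK partners, was at 0.92, 1.62 and 1.17 FPKM in the Sh-NC libraries and at 1.72, 1.74 and 1.75 FPKM in Sh-YAP1. The Sh-YAP1 libraries lay close together and above all Sh-NC libraries, with the nearest pair 1.62 and 1.72. The ratio of the mean FPKM was 1.40 and the log2 fold change 0.30 (SE 0.13, 95% interval -0.02 to 0.62, limma adjusted p = 0.251). FOSB (ENSG00000125740, chr19:45467995-45475179, plus strand) was at 0.46, 0.27 and 0.29 FPKM in the Sh-NC libraries and at 0.56, 0.31 and 0.65 FPKM in Sh-YAP1. Its groups overlapped (two-sided p = 0.2 in an exact permutation test). Without the filter on low values its log2 fold change was 0.17 (SE 0.11, limma adjusted p = 0.639).

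The summed FPKM of FOS, FOSB, FOSL1 and FOSL2 was 153.44, 150.3 and 165.65 in the Sh-NC libraries and 150.55, 133.04 and 145.16 in Sh-YAP1. The groups overlapped by 1 library, Sh-YAP1 replicate 1. FOSL1 made up 77.6% ± 2.83 of this sum in the Sh-NC libraries and 83.7% ± 8.48 in Sh-YAP1 (SD, n = 3). The share reached 93.5% in Sh-YAP1 replicate 2, the library with low FOSL2, and was 75.7% to 80.8% in the others. FOSL2 made up 21.4% ± 2.70 and 14.7% ± 8.45, and FOS and FOSB together stayed a small part, with FOS at 0.795% and 1.22% on average.

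The JUN proteins can pair with each other and with FOS proteins. JUN (ENSG00000177606, chr1:58780788-58784327, minus strand), the strongest activator among them, was at 42.21, 40.12 and 38.7 FPKM in the Sh-NC libraries and at 39.85, 40.21 and 42.51 FPKM in Sh-YAP1. The ranges of the groups were nearly the same. The log2 fold change was 0.02 (SE 0.07, limma adjusted p = 0.906), with a 95% interval that corresponds to a ratio of FPKM + 1 between 0.905 and 1.13.

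JUNB (ENSG00000171223, chr19:12791496-12793315, plus strand), which can restrain JUN, was at 16.38, 17.52 and 15.02 FPKM in the Sh-NC libraries and at 16.91, 16.48 and 16.5 FPKM in Sh-YAP1. All Sh-YAP1 values lay inside the range of Sh-NC (log2 fold change 0.03, SE 0.08, limma adjusted p = 0.865). Exons of JUNB overlap those of HOOK2, a microtubule linker gene on the opposite strand, which was at 6.66 to 8.18 FPKM in the Sh-NC libraries and 9.82 to 12.71 FPKM in Sh-YAP1. Whether fragments were counted by strand is not stated, so fragments of the shared exons cannot be told apart. JUND (ENSG00000130522, chr19:18279760-18281622, minus strand), the member found at steady levels in many resting cells, was at 39.4, 46.92 and 50.96 FPKM in the Sh-NC libraries and at 49.47, 39.01 and 45.92 FPKM in Sh-YAP1. Its groups overlapped widely, and its spread was larger than that of JUN (log2 fold change -0.03, SE 0.13, limma adjusted p = 0.921).

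The summed FPKM of JUN, JUNB and JUND was 102 ± 3.83 in the Sh-NC libraries and 102 ± 5.74 in Sh-YAP1 (SD, n = 3). JUN made up 39.5% and 40.0% of it on average, JUNB 15.9% and 16.3%, and JUND 44.6% and 43.7%. The ratio of the JUN sum to the FOS sum was 0.639, 0.696 and 0.632 in the Sh-NC libraries and 0.706, 0.719 and 0.723 in Sh-YAP1. The groups of this ratio were apart by the gap between 0.696 and 0.706. FOSL2 is part of its denominator, and the ratio was not tested.

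ATF3 (ENSG00000162772, chr1:212565334-212620777, plus strand), a stress-induced partner of JUN proteins, was at 0.65, 0.47 and 0.86 FPKM in the Sh-NC libraries and at 0.43, 0.44 and 1.31 FPKM in Sh-YAP1. The Sh-YAP1 group held both the highest and the lowest library. The log2 fold change was 0.03 (SE 0.22, 95% interval -0.49 to 0.54, limma adjusted p = 0.959), an interval that holds changes in both directions larger than that of EGR1.

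EGR1 (ENSG00000120738, chr5:138465490-138469315, plus strand), a zinc finger factor induced through SRF, was at 2.58, 2.94 and 2.67 FPKM in the Sh-NC libraries and at 3.92, 4.04 and 3.82 FPKM in Sh-YAP1. All Sh-YAP1 libraries lay above all Sh-NC libraries, with a gap between 2.94 and 3.82 that was larger than the range within either group. The ratio of the mean FPKM was 1.44 and the log2 fold change 0.40 (SE 0.09, 95% interval 0.20 to 0.61). The limma p was 0.0026 unadjusted and 0.0610 with Benjamini-Hochberg adjustment, and an exact permutation test, two-sided, gave its smallest p, 0.1. The size of this change was at the percentile 87.4 of all genes tested. EGR1 had a single transcript in the files, so its value does not depend on how fragments were shared among transcripts. Fitted among all transcripts instead of all genes, the same values gave an SE of 0.15. The limma p there was 0.0380 unadjusted and 0.769 adjusted.

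MYC (ENSG00000136997, chromosome 8, plus strand), a factor of growth and ribosome synthesis that pairs with MAX, was at 7.1, 8.06 and 6.9 FPKM in the Sh-NC libraries and at 8.03, 7.34 and 5.38 FPKM in Sh-YAP1. The groups overlapped, and Sh-YAP1 replicate 3 was the lowest library. The log2 fold change was -0.09 (SE 0.15, 95% interval -0.44 to 0.26, limma adjusted p = 0.762).

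The files give a value per transcript, without transcript names, and the gene values above are sums over them. The transcripts of a gene are numbered here by their summed FPKM over the 6 libraries, so that transcript 1 holds the most. The members had 58 transcripts in all, of which 39 were above 0 in some library and 27 reached a mean of 0.1 FPKM and were tested. None of the 27 had an adjusted p under 0.05 (limma, lowest adjusted p = 0.555), against 0.0515% of 77655 transcripts. At an unadjusted p under 0.05 stood 3, against 6.12% of all transcripts, and the groups did not overlap in 9, against 13.1%.

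FOS transcript 1 held 41.8% of the summed FPKM of the gene, at 0.42, 0.22 and 0 FPKM in the Sh-NC libraries and 1.12, 1.07 and 0.9 FPKM in Sh-YAP1 (log2 fold change 0.76, SE 0.19, limma adjusted p = 0.555). FOS transcript 2 was at 0.21, 0.76 and 0.75 FPKM in the Sh-NC libraries and 0.11, 0.24 and 0.41 FPKM in Sh-YAP1. The groups of transcript 1 were apart, and those of transcript 2 overlapped with mostly lower values in Sh-YAP1. Transcript 1 was the FOS transcript that differed most between the group means, and without it the log2 fold change of the remaining sum was -0.22. How fragments were divided among the transcripts was not tested.

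FOSL1 transcript 1 (48.4% of the gene) was at 65.12, 61.26 and 60.13 FPKM in the Sh-NC libraries and at 48.83, 55.83 and 58.14 FPKM in Sh-YAP1. FOSL1 transcript 2 (42.5%) was at 39.4, 37.16 and 63.88 FPKM in the Sh-NC libraries and at 62.34, 57.39 and 47.0 FPKM in Sh-YAP1. Transcript 1 was lower in every Sh-YAP1 library (log2 fold change -0.20, limma adjusted p = 0.790) and transcript 2 overlapped. FOSL1 transcripts 4 and 5, at 3.29% and 0.299% of the gene, were also lower without overlap (limma adjusted p = 0.770 and 0.769). The gene sum differed by less than its spread.

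The drop of FOSL2 in Sh-YAP1 replicate 2 lay in 1 transcript, which held 97.7% of the gene, at 33.89, 34.37 and 29.86 FPKM in the Sh-NC libraries and at 28.96, 5.79 and 27.85 FPKM in Sh-YAP1. MYC transcript 1 (60.4% of the gene) was at 4.72, 5.25 and 4.43 FPKM in the Sh-NC libraries and at 4.04, 3.98 and 3.43 FPKM in Sh-YAP1. It was lower in Sh-YAP1 without overlap (log2 fold change -0.27, limma adjusted p = 0.803), while MYC transcript 3 was at 0.05, 0.05 and 0.7 FPKM in the Sh-NC libraries and at 1.69, 1.48 and 0.14 FPKM in Sh-YAP1. FOSB transcript 1 was at 0.31, 0.17 and 0.16 FPKM in the Sh-NC libraries and at 0.05, 0.04 and 0.08 FPKM in Sh-YAP1, opposite in direction to the gene sum. ATF3 transcript 2 was at 0.45, 0.4 and 0.3 FPKM in the Sh-NC libraries and at 0, 0 and 0.26 FPKM in Sh-YAP1.

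**Figure D3:**
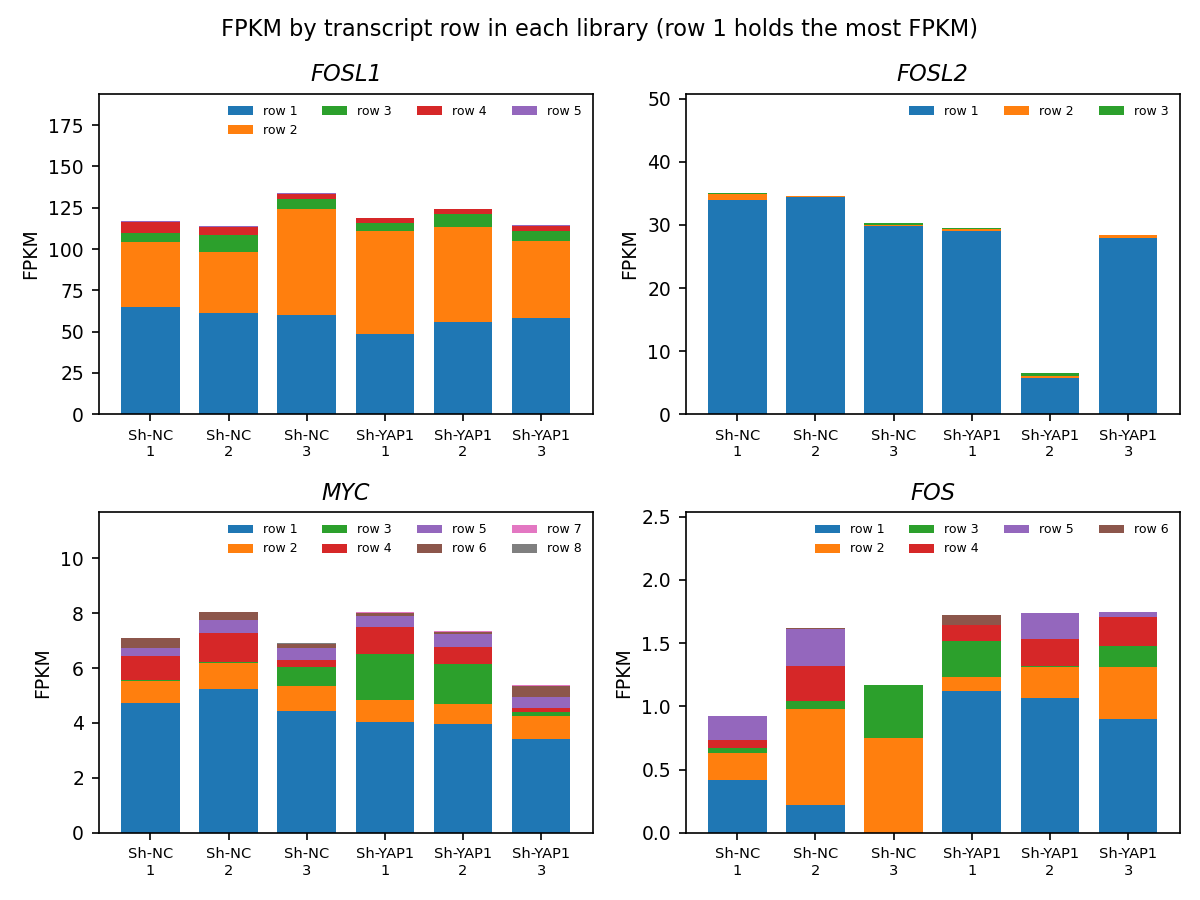
FPKM of FOSL1, FOSL2, MYC and FOS in each library as stacked bars, each colour 1 transcript (labelled row) numbered by its summed level. In FOS transcript 1 makes up a larger part of the Sh-YAP1 bars than of the Sh-NC bars, and the short FOSL2 bar of Sh-YAP1 replicate 2 is short in transcript 1, at 5.79 FPKM.

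The genes around these factors were described by 7 lists, whose members were chosen with earlier results of these data known, so that their counts are no independent evidence. Among 26 other known or possible dimer partners, from the ATF, CREB, MAF, BATF, JDP, NFE2L and CEBP families, 23 were tested and none passed (limma), with 8 at an unadjusted p under 0.05 (21.9% of all genes) and a median log2 fold change of 0.11. The lowest p in this list were those of MAFF, a small MAF protein without an activation domain, and of ATF1, a CREB relative. MAFF was at 12.03 ± 0.248 FPKM in the Sh-NC libraries and 9.20 ± 0.346 FPKM in Sh-YAP1 (limma adjusted p = 0.0526), and ATF1 at 7.64 ± 0.978 and 12.03 ± 2.06 FPKM (adjusted p = 0.0802).

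Of 28 other immediate early genes and SRF or ELK factors, 22 were tested, and 2 passed with lower values in Sh-YAP1 (9.09%, against 3.38% of all genes). These were IER5 at 11.9 ± 0.579 and 8.37 ± 0.604 FPKM (log2 fold change -0.46, SE 0.08, limma adjusted p = 0.0416) and CITED2, a co-regulator of CBP and p300, at 75.1 ± 3.35 and 56.0 ± 3.91 FPKM (-0.42, SE 0.08, adjusted p = 0.0419). Neither call is firm. The list had 0 calls without the filter on low values and with the replicate number as a block (232 and 1 over all genes). It also had 0 when transcripts over 1 FPKM in just 1 library were dropped (346 over all genes). Leaving out any 1 library gave 0 or 1 (78 to 171 over all genes), as quantile normalization and omitting the variance trend gave 1. A filter of 1 FPKM and median centring gave 3. The direction of IER5 and CITED2 was opposite to that of the fitted changes of EGR1 and FOS. In the list 9 of the 22 had a fitted change above 0, with a median of -0.05. IER2, named after its values were seen, was at 2.12, 28.06 and 23.44 FPKM in the Sh-NC libraries and at 2.59, 3.37 and 13.92 FPKM in Sh-YAP1, and so differed severalfold within each group.

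Of 28 genes known as AP-1 targets, 24 were tested, 1 rose and 4 fell (20.8%, against 3.38% of all genes), with a median log2 fold change of -0.10. The cytokine IL11 fell from 23.9 ± 1.66 to 6.86 ± 0.372 FPKM (log2 fold change -1.66, SE 0.08, limma adjusted p = 0.0020). The phosphatase DUSP1, which switches off MAP kinases and is itself induced early, fell from 23.1 ± 0.605 to 15.3 ± 1.12 FPKM (-0.57, adjusted p = 0.0215). The matrix protease MMP14 rose from 97.3 ± 9.19 to 138 ± 9.83 FPKM (0.50, adjusted p = 0.0428). CCND1, cyclin D1, outside the rule for naming and named after its values were seen, fell from 276 ± 3.53 to 209 ± 4.24 FPKM (adjusted p = 0.0230). The number of calls in this list fell from 5 to 1 when any 1 of the 6 libraries was left out, to 3 without the filter on low values and to 0 with the replicate block, while the calls over all genes fell from 499 to between 78 and 171, to 232 and to 1. These target genes differed in both directions, and no tested JUN or FOS family gene passed.

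Of 20 partners and regulators of MYC, 17 were tested and none passed (limma), with 6 at an unadjusted p under 0.05 (21.9% of all genes) and a median log2 fold change of -0.06. RUVBL1 and RUVBL2, ATPases that bind MYC, had the lowest p, with 51.0 ± 0.856 and 40.8 ± 2.10 FPKM (adjusted p = 0.0587) and 116 ± 6.97 and 94.9 ± 6.32 FPKM (adjusted p = 0.104). Of 30 genes known as MYC targets, all were tested, 1 rose and 4 fell (16.7%, against 3.38% of all genes), with a median log2 fold change of -0.20. NOLC1, a nucleolar chaperone, rose from 47.3 ± 5.81 to 96.2 ± 2.50 FPKM (log2 fold change 1.02, SE 0.10, limma adjusted p = 0.00978). The cell cycle kinase CDK4 fell from 122 ± 8.13 to 76.2 ± 3.50 FPKM (-0.67, adjusted p = 0.0129), the ribosome assembly factor BYSL from 57.6 ± 6.83 to 34.4 ± 2.63 FPKM (-0.72, adjusted p = 0.0245) and ODC1, the first enzyme of polyamine synthesis, from 63.1 ± 0.547 to 41.9 ± 4.17 FPKM (-0.59, adjusted p = 0.0245). The remaining gene was RRP9, outside the rule for naming and named after its values were seen, which fell from 28.7 ± 0.854 to 21.5 ± 0.979 FPKM (adjusted p = 0.0352). Leaving out any 1 library left 1 to 3 calls in this list, omitting the filter on low values 3 and the replicate block 0. Over all genes these alternatives gave 78 to 171, 232 and 1 calls. MYC itself, at 7.35 ± 0.62 and 6.92 ± 1.37 FPKM, did not pass.

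Of 26 MAP kinases and related kinases upstream of AP-1, all were tested and none passed (limma), with 8 at an unadjusted p under 0.05 (21.9% of all genes) and a median log2 fold change of 0.13. The lowest p were those of MAP2K3, an activator of p38, at 36.3 ± 2.70 and 27.5 ± 0.575 FPKM (adjusted p = 0.0515), and MAP2K4, an activator of JNK, at 17.5 ± 1.55 and 12.8 ± 0.917 FPKM (adjusted p = 0.0682). Of YAP1, WWTR1 and the 4 TEAD factors, only YAP1 passed. WWTR1, which encodes the YAP1 relative TAZ and was named after its values were seen, was at 42.2 FPKM in the Sh-NC libraries and 48.7 FPKM in Sh-YAP1 (log2 fold change 0.20, limma adjusted p = 0.164).

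**Figure D4:**
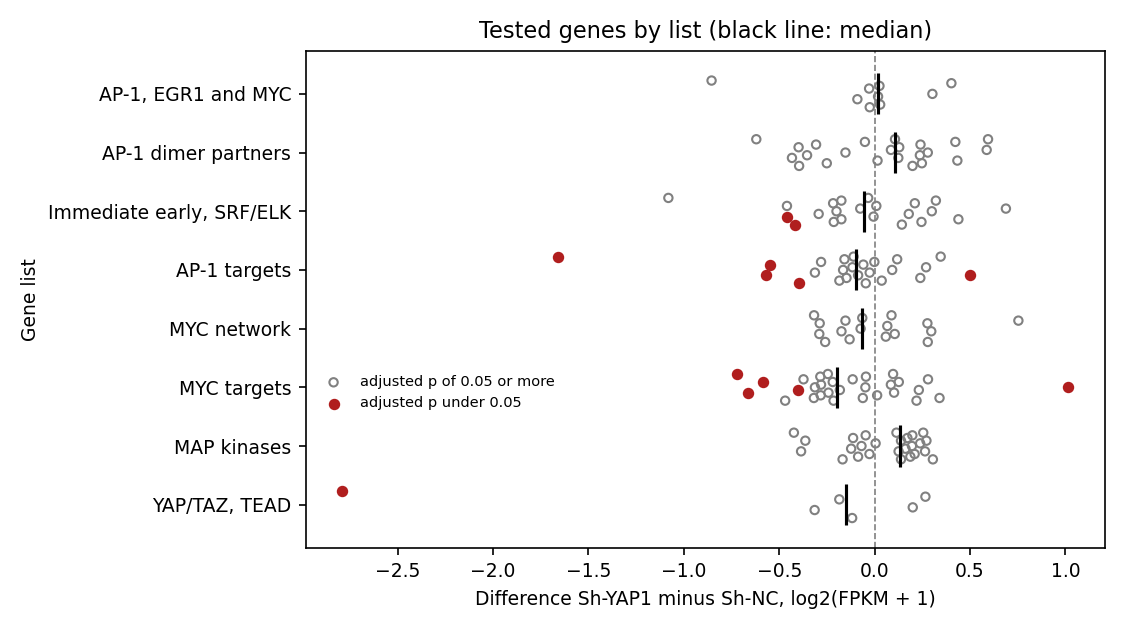
Log2 fold change, Sh-YAP1 against Sh-NC, of the tested members and of each tested gene in the 7 lists, with 1 point per gene, filled red where the adjusted p is under 0.05, and a black line at each median. No member is filled, YAP1 lies at -2.79, and IL11 at -1.66 and NOLC1 at 1.02 lie farthest from 0 among the AP-1 and MYC target genes.

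The genes most like EGR1 over the 6 libraries, by the root-mean-square difference of their centred log2(FPKM + 1) values, were ABR (0.0247), CDS2 (0.0261) and RGL2 (0.0265). Those most like FOS were CRELD1 (0.0316), PIK3AP1 (0.0420) and METTL18 (0.0446). This measure ranks all genes by their values in 6 libraries and carries no test.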

How the data were processed

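RNA was sequenced from 3 Sh-NC and 3 Sh-YAP1 libraries of MDA-MB-231 cells on day 3. A different series is cited for the sequencing in the study's methods, so the link between these libraries and the study rests on cell line, hairpin and replicate number. The authors deposited FPKM values with 2 decimals for 229420 transcripts per library, which summed to 467493 to 475116 per library. The submitters' processing notes name Bowtie 0.12.2, HISAT2 2.0 and hg19. The tool that gave the FPKM values, the annotation and the use of strand are not given in the sources used here, and the depth is unknown. Of 60612 gene identifiers, 58394 were found in GENCODE release 29 (GRCh38), the source of the gene positions, and 42020 were given a symbol.

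FPKM values were summed per gene. Genes averaging 0.5 FPKM or more (transcripts, 0.1 FPKM) were tested with limma 3.58.1 in R 4.3.3 on log2(FPKM + 1), with the mean-variance trend, without covariates and with Benjamini-Hochberg adjustment at 0.05. The script was tested on simulated data. Single genes were also compared by an exact permutation test of the group means of log2(FPKM + 1) (Python 3.11.15, numpy 2.4.6). Promoter windows were RefSeq on GRCh38.p14. The members and lists were chosen with earlier results of these data known. All members and YAP1 were named, and per list up to 4 genes of at least 1 FPKM that passed, by size of change, or else the 2 with the lowest p. A gene that passed among the AP-1 targets and a marker of other cells are not reported here. For the 2 members with the lowest p, the 3 genes of most similar profile were named. Alternatives covered the filter, pseudocount, scaling, variance model, transcripts summed, replicate block and leaving out each library.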

Additional observations from a re-analysis of the deposited data

How the results depend on the processing

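No member and no transcript of a member had an adjusted p under 0.05 in any alternative. In the gene fits EGR1 ranged from 0.37 to 0.52 in log2 fold change and from 0.0526 to 0.173 in limma adjusted p. The number of all genes called was 232 without a filter and 78 to 171 without 1 library. Replicate numbers did not pair the samples (correlations of deviations -0.0285, 0.0621 and 0.0042), and with the replicate block 1 gene was called in all, with 0 of the immediate early genes, 0 of the AP-1 targets and 0 of the MYC targets. Without a filter the immediate early genes had 0 calls and the AP-1 and MYC targets 3 each. The immediate early genes had 1 call under quantile normalization or without the variance trend, and 0 when transcripts over 1 FPKM in just 1 library were dropped. The AP-1 dimer partners had 1 call under the filter of 1 FPKM and under median centring, and the MAP kinases 1 under that filter. Without 1 library the calls ranged from 0 to 1 for immediate early genes, were 1 for AP-1 targets, and ranged from 1 to 3 for MYC targets and from 0 to 1 for MYC partners. The cause of these shifts was not tested. By design the fits without a library hold fewer samples, and the replicate block fits more coefficients to the same libraries. The fit without a filter adjusts over more genes.

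Several log2 fold changes changed sign. ATF3 was at -0.0081 and -0.026 with pseudocounts of 0.1 and 0.01, and under quantile normalization FOSL1 was at 0.028 and JUND at 0.014. Another fit left out the transcript of a member that differed most between the group means, a choice made on the difference itself. There FOS was at -0.22 (from 0.30), FOSL2 at 0.043 (from -0.85) and MYC at 0.17 (from -0.09). FOSL1 kept its direction at -0.23 (from -0.03, limma adjusted p = 0.207), and ATF3 no longer passed the filter. The transcript left out of FOSL2 held 97.7% of the FPKM of that gene, so the value of FOSL2 in this fit describes only the small remainder. Leaving out 1 library gave -0.20 to 0.14 for ATF3, -0.071 to 0.046 for FOSL1, -0.011 to 0.050 for JUN, -0.025 to 0.079 for JUNB, -0.13 to 0.065 for JUND and -0.19 to 0.058 for MYC. FOS was at 0.20 without Sh-NC replicate 1, at 0.42 without Sh-NC replicate 2, and at 0.49 and 0.52 with pseudocounts of 0.1 and 0.01. EGR1 kept its direction in every alternative. The sampling error within a library is unknown, and among the members tested FOSL2 had the largest SE, 0.52.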
